A study of Mus musculus with 12 samples.

Results

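Membrane mucins are the 6 genes Muc1, Muc4, Muc13, Muc15, Muc16 and Muc20, taken by gene symbol from a table of 19702 genes. All 6 were in the table and all 6 passed the filter on low counts. They were measured by RNA sequencing in 12 libraries of mouse cornea, 3 in each of 4 groups, and each library pooled 6 corneas from 3 mice. UCPRP and UCS corneas were injured with benzalkonium chloride (BAK), a preservative of eye drops, and received a biologic named only by those letters in the labels. Vehicle corneas were injured with BAK and are described as having no treatment, and Control corneas had neither injury nor treatment. BAK was given as 5 µl of a 0.2% solution to each eye every day for 14 days, and UCS or UCPRP as 5 µl of a 20% solution 3 times a day for 10 days. The sources used here do not give strain, age, sex, time of harvest, or whether the days of drops overlapped the days of BAK.

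Membrane mucins are large proteins that cross the plasma membrane and carry an extracellular part densely covered with O-linked sugars. On the apical cells of the cornea and conjunctiva they form the glycocalyx, which holds the tear film, reduces friction and acts as a barrier to dyes and microbes. Their extracellular part can be cut off and shed, and their short cytoplasmic tails bind the cytoskeleton or signalling proteins. MUC1, MUC4 and MUC16 are the members best known from the human ocular surface. The secreted mucins, such as MUC5AC, come from goblet cells, which are cells of the conjunctiva rather than of the central cornea.

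Library totals lay between 18.554 M and 20.444 M estimated counts, with 17426 to 17867 genes detected. Levels are counts per 1 M (CPM) scaled with TMM factors. A listed 0 allows up to 3 counts, which is 0.147 to 0.178 CPM by library and covers counting error only. The uninjured libraries carried the defining keratin of corneal epithelium, Krt12, at 15902 to 32870.0 CPM, whereas the 9 injured libraries had 3.29 to 185.6 CPM, so the labelled tissue kept little of that marker after BAK. In the fit of Vehicle against Control, 9 of 11 tested corneal epithelium markers fell and none rose, and 10 of 12 tested goblet cell markers rose and none fell. Summed goblet marker levels were 1066 to 1568 CPM in Vehicle and 96.3 to 185 CPM in Control. Summed markers of epithelium in general were 17592 to 21167 CPM in Vehicle and 18918 to 33992 CPM in Control. In pools of whole tissue, a change in the number of cells of a type and a change in RNA per cell cannot be told apart. Fold changes and adjusted p values are those of edgeR (quasi-likelihood, Benjamini-Hochberg over the 16124 tested genes), and a gene is called at an adjusted p under 0.05.

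The genes lie at several places in the genome (RefSeq coordinates on GRCm38.p6). Muc1 (Entrez 17829) lies on the plus strand of chromosome 3 from 89229056 to 89233381, and Muc15 (Entrez 269328) on the plus strand of chromosome 2 from 110721494 to 110739537. Muc16 (Entrez 73732), the longest, lies on the minus strand of chromosome 9 from 18495445 to 18674821. Another 3 members share chromosome 16. Muc4 (Entrez 140474) runs from 32735886 to 32782391 on the plus strand, Muc20 (Entrez 224116) from 32777419 to 32797435 on the minus strand, and Muc13 (Entrez 17063) from 33794037 to 33819929 on the plus strand.

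The 2 members that rose after BAK are introduced by their RefSeq promoters (GRCm38.p6, 5′ to 3′ on the gene's own strand). Each window runs from 250 bases before to 50 after a listed start of the gene. For Muc1 this start is the gene's lower coordinate, 89229056. For Muc16 it lies inside the gene, so most of that window falls within the gene's coordinates, which end at 18674821. Capitals mark matches, on either strand, to any of 5 motifs: TATAAA (the box bound by TBP), GGGCGG (a GC box), CACCTG (an E-box), TGANTCA (AP-1) and TTCNNNGAA (STAT).
Muc1, chr3:89228806-89229105, plus strand: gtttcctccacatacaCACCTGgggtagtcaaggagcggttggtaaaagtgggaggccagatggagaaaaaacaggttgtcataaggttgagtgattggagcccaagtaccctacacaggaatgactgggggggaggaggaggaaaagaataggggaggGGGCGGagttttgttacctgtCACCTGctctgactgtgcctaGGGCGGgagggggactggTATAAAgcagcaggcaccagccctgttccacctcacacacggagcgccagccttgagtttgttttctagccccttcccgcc
Muc16, chr9:18674554-18674853, minus strand: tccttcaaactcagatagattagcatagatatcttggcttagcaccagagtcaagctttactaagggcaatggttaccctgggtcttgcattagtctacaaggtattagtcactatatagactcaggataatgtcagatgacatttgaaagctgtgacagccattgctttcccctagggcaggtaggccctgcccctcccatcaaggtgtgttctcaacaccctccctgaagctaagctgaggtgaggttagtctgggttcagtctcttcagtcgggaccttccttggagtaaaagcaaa

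The Muc1 window held TATAAA 31 bases before the start, GGGCGG at 91 and 49 bases and CACCTG at 234 and 70 bases before it. None of the 5 motifs' letters was in the Muc16 window, which lies mostly inside the gene. The bases before the gene's outer end at 18674821 were mostly not searched, so this absence does not describe them. Of 32851 promoters of the same length, 13.6% held TATAAA, 35.7% GGGCGG, 20.2% CACCTG, 7.81% TGANTCA and 8.3% TTCNNNGAA. Of the 6 members 5 had a promoter in the table; Muc4 held TATAAA at 36 bases, Muc20 held CACCTG at 66 bases, and a pair of Muc13 windows each held TGANTCA, at 61 bases in the first and 179 in the second. The first Muc13 window also held TTCNNNGAA at 140 bases, the only match to that motif among the members. These matches are a description of letters and no measure of binding.

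Vehicle was set against Control to show the effect of BAK. Of the 6 mucins, Muc16 and Muc1 rose, Muc15 fell, and Muc4, Muc13 and Muc20 were not called. The 3 called members stand against 16.5% of all tested genes called in this comparison (9.58% higher and 6.92% lower, or 1545 and 1116 genes; 2020 and 868 genes with library totals in place of TMM). Libraries of the groups did not overlap for Muc1, Muc13 and Muc16, all higher, or for Muc15, lower, against 15.2% (higher) and 15.4% (lower) of all tested genes. The median log2 fold change was 0.55 over the 6 members, also with Muc16 at its lower bound, and 0 over all genes tested.

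Muc16 encodes the largest membrane mucin, known in human as the CA125 antigen and as a barrier component of the apical glycocalyx. It had 2.51, 3.08 and 3.70 CPM in UCPRP, 7.86, 4.66 and 5.62 CPM in UCS and 7.43, 4.30 and 7.30 CPM in Vehicle replicates 1 to 3, against 0 CPM in all 3 Control libraries. Every injured library therefore held Muc16 reads (47 to 148 estimated counts) and no Control library held any. With 375 counts in Vehicle and 0 in Control, Muc16 was at least 39.0-fold higher in Vehicle when Control is set at 3 counts per library (adjusted p = 6.15e-05). Even at its highest it was a rare transcript: 0.241 CPM per kb of exon in Vehicle, where Muc1 had 98.0 CPM per kb. The 0 in Control concerns the whole deposited row for this gene, and the sources used here do not say what share of its exons the authors' counting covered.

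Muc1 encodes the small, widely expressed epithelial mucin whose cytoplasmic tail takes part in signalling. Its levels were 268, 223 and 203 CPM in UCPRP, 367, 287 and 256 CPM in UCS and 259, 203 and 227 CPM in Vehicle, against 42.8, 68.0 and 94.6 CPM in Control. The lowest of the 9 injured libraries was above the highest Control library, and UCS replicate 1 was the highest of all. Muc1 rose 3.36-fold in Vehicle (1.75 on the log2 scale, SE 0.25, adjusted p = 0.00085). The 3 Control libraries spread more widely, in proportion to their mean (68.5 ± 25.9 CPM, SD, n = 3), than the Vehicle libraries did (230 ± 27.7 CPM). Of its neighbours on chromosome 3, Trim46, 787 bases away, was not called (9.09 ± 0.717 CPM in Vehicle and 5.72 ± 2.37 CPM in Control, adjusted p = 0.0885). Thbs3, 2214 bases away on the other side, rose (12.8 ± 0.842 CPM in Vehicle and 6.39 ± 1.24 CPM in Control, adjusted p = 0.00127).

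Muc15 encodes a membrane mucin first described in bovine milk fat globule membranes. It had 42.1, 46.1 and 47.4 CPM in UCPRP, 70.9, 58.9 and 56.7 CPM in UCS and 58.5, 40.3 and 48.3 CPM in Vehicle, against 113, 125 and 150.2 CPM in Control. All 9 injured libraries lay below all Control libraries, and Muc15 was the only member of the 6 whose call was a fall. It fell to 0.379 of its Control level (log2 fold change −1.40, SE 0.15, adjusted p = 0.000174). Muc15 lies inside a gene on the opposite strand, Ano3, with 61 shared exon bases; Ano3 stood at 2.16 CPM in Vehicle and 1.62 CPM in Control, far below Muc15.

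**Figure D1:**
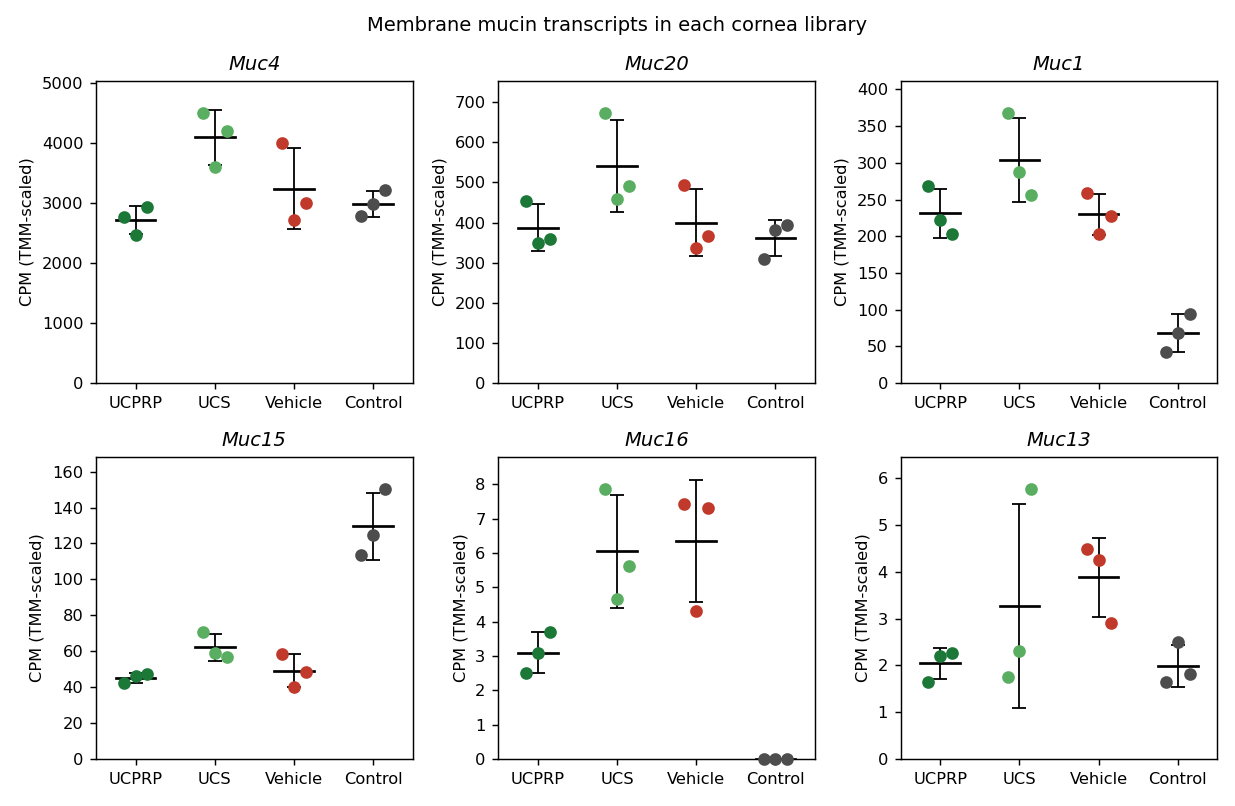
Levels of the 6 membrane mucins (CPM, TMM-scaled, linear axes from 0) in UCPRP, UCS, Vehicle and Control libraries; points are libraries, and bars are the mean ± SD of 3. Muc1 and Muc16 were higher and Muc15 was lower in all 9 injured libraries than in any of the 3 Control libraries, while Muc4, Muc13 and Muc20 overlapped between injured and Control libraries.

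Muc4 was the most abundant member in every library. MUC4 is a long mucin that can bind the receptor tyrosine kinase ERBB2 through its membrane-bound subunit. Its levels were 3996, 2714 and 3007 CPM in Vehicle and 2776, 2978 and 3208 CPM in Control. The groups overlapped, with Vehicle replicate 1 highest and Vehicle replicate 2 lowest (log2 fold change 0.12, SE 0.18, ±2 SE from −0.25 to 0.48, adjusted p = 0.754). Per kb of exon it stood at 275 CPM in Vehicle and 254 CPM in Control.

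Muc20, a mucin known to bind the receptor MET in human cells, had 494, 338 and 367 CPM in Vehicle and 309, 382 and 393 CPM in Control. Its groups overlapped, with Vehicle replicate 1 highest and Control replicate 1 lowest (log2 fold change 0.14, SE 0.20, ±2 SE from −0.25 to 0.54, adjusted p = 0.71). Muc4 and Muc20 overlap on opposite strands, sharing 627 exon bases, which are 15.6% of Muc20's exon bases and 5.33% of Muc4's. The sources used here do not say whether strand was used in counting, and both genes had fractional counts in 12 of 12 libraries. If Muc4 were read evenly along its exons, its level over the shared bases would be 173 CPM in Vehicle and 159 CPM in Control, where Muc20 itself had 399 CPM in Vehicle and 361 CPM in Control. The values of Muc20 in particular are therefore uncertain.

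Muc13, a mucin best known from the gut epithelium, was near the lower end of what these libraries measure. It had 4.49, 4.25 and 2.91 CPM in Vehicle, against 1.65, 2.49 and 1.81 CPM in Control. The libraries of the groups did not overlap. The difference did not pass the test (log2 fold change 0.97, SE 0.41, adjusted p = 0.139).

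Libraries within the Vehicle, Control and UCS groups also differed in the phase of clock genes. Dbp was low in Vehicle replicates 1 and 2, Control replicate 3 and UCS replicate 1. Within the high-Dbp libraries the log2 ratio of Vehicle to Control was 2.04 for Muc1 and −1.30 for Muc15 (1 library against 2). Within the low-Dbp libraries it was 1.29 for Muc1 and −1.61 for Muc15 (2 libraries against 1). Muc16 had 7.30 CPM in Vehicle and 0 CPM in Control within the high-Dbp libraries, and 5.87 CPM in Vehicle and 0 CPM in Control within the low-Dbp ones. With so few libraries on each side these are values with no test.

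The injured groups that received a biologic show the same 3 members on the same sides of Control. These comparisons and the one above share the Control libraries, so they are no independent repeats. In UCS against Control, 10.9% of all tested genes were called (6.4% higher and 4.47% lower). Muc1 rose 4.43-fold (304 ± 57.5 CPM in UCS and 68.5 ± 25.9 CPM in Control, log2 fold change 2.15, SE 0.26, adjusted p = 0.000443). Muc15 fell to 0.48 of its Control level (62.1 ± 7.65 CPM in UCS and 129 ± 18.9 CPM in Control, log2 fold change −1.06, adjusted p = 0.0012). Muc16 was at least 37.2-fold higher in UCS (345 counts against 0, adjusted p = 6.68e-05).

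In UCPRP against Control, 10.4% of all tested genes were called (5.3% higher and 5.07% lower). Muc1 rose 3.38-fold (231 ± 33.3 CPM in UCPRP and 68.5 ± 25.9 CPM in Control, adjusted p = 0.00148), and Muc15 fell to 0.349 of its Control level (45.2 ± 2.76 CPM in UCPRP, adjusted p = 0.000206). Muc16 was at least 19.0-fold higher in UCPRP (179 counts against 0, adjusted p = 0.000152). Muc4, Muc13 and Muc20 overlapped with Control and were not called by edgeR. Their log2 fold changes were −0.14 for Muc4 (adjusted p = 0.685), 0.05 for Muc13 (adjusted p = 0.96) and 0.10 for Muc20 (adjusted p = 0.784).

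UCS had the highest mean levels of Muc4 and Muc20 among the 4 groups. Muc4 had 4490, 3590.4 and 4204 CPM in UCS, all above the 3 Control libraries, and Muc20 had 672, 460 and 491 CPM in UCS, again all above Control. Neither passed the edgeR test against Control (Muc4 log2 fold change 0.45, SE 0.18, adjusted p = 0.154; Muc20 0.58, SE 0.20, adjusted p = 0.0885). DESeq2 called both higher, with adjusted p values of 0.0262 and 0.0271, so the call depends on the tool. Groups without overlap in the higher direction made up 14.9% of all tested genes in this comparison. Since Muc4 and Muc20 share exon bases, they may not be separate cases. Muc13 had 1.75, 2.30 and 5.77 CPM in UCS, where replicate 3 alone lay above every Control library (log2 fold change 0.73, SE 0.41, adjusted p = 0.328).

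**Figure D2:**
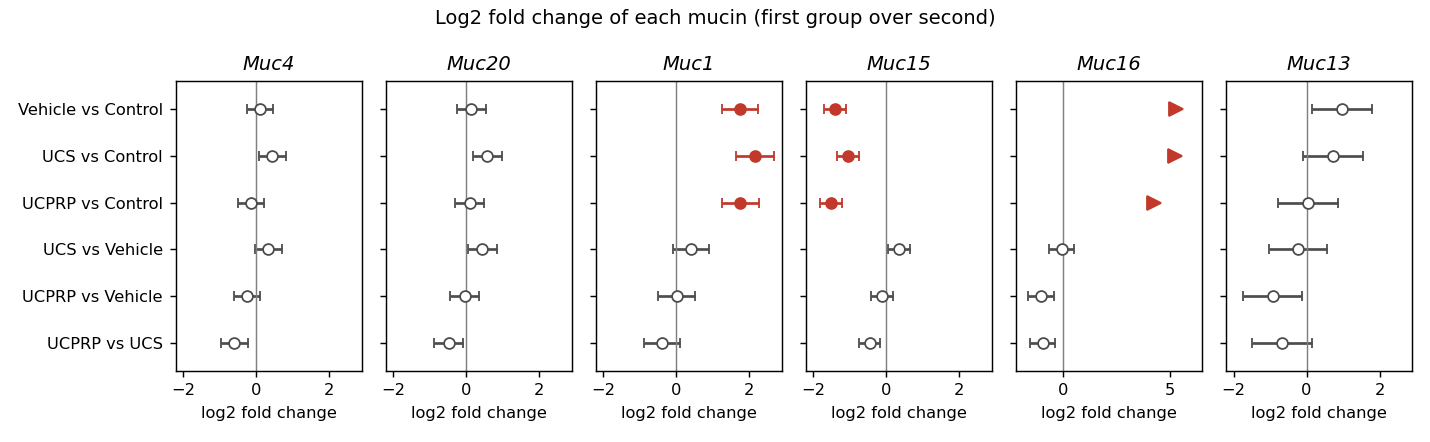
Log2 fold change, first group over second, of each mucin in the 6 pairwise comparisons; circles are estimates with bars of ±2 SE, filled red where called by edgeR, and triangles mark the lower bounds of Muc16 against Control. Calls are limited to Muc1, Muc15 and Muc16 against Control, and no estimate between injured groups is filled.

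The ratio of one member to another within a library needs no scaling between libraries. Since Muc1 was higher and Muc15 lower in every injured library, their ratio had to separate injured from Control libraries, and it is given as a description of size. The ratio of Muc1 to Muc15 estimated counts lay between 4.29 and 6.37 in the 9 injured libraries and between 0.378 and 0.63 in the 3 Control libraries. The ratio of Muc4 to Muc20 lay between 6.09 and 8.57 in injured and between 7.79 and 8.98 in Control libraries, so these ranges overlapped.

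Per kb of exon, the 6 members together stood at 440 ± 34.8 CPM in UCPRP, 631 ± 85.9 CPM in UCS, 488 ± 91.9 CPM in Vehicle and 410 ± 45.1 CPM in Control. Muc4 made up 56.3 ± 1.02% of that sum in Vehicle and 62.2 ± 2.5% in Control. Muc1 made up 20.2 ± 1.38% in Vehicle and 6.98 ± 1.93% in Control. Muc15 made up 2.82 ± 0.12% in Vehicle and 8.83 ± 0.417% in Control, while Muc20 stood at 20.3 ± 0.444% in Vehicle and 21.9 ± 0.981% in Control. Muc16 was 0.0492 ± 0.0106% of the sum in Vehicle. In Control the order per kb was Muc4 (254 CPM), Muc20 (89.7), Muc15 (36.3), Muc1 (29.2), Muc13 (0.653) and Muc16 (0). Muc15 and Muc1 overlapped between Control libraries per kb, although Muc15 was above Muc1 within each of them. Control replicates 1 to 3 had 31.8, 34.9 and 42.1 CPM per kb for Muc15 and 18.3, 29.0 and 40.3 for Muc1. In Vehicle the order was Muc4 (275 CPM), Muc20 (99.2), Muc1 (98.0), Muc15 (13.7), Muc13 (1.28) and Muc16 (0.241), where Muc20 and Muc1 lay within their spread.

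**Figure D3:**
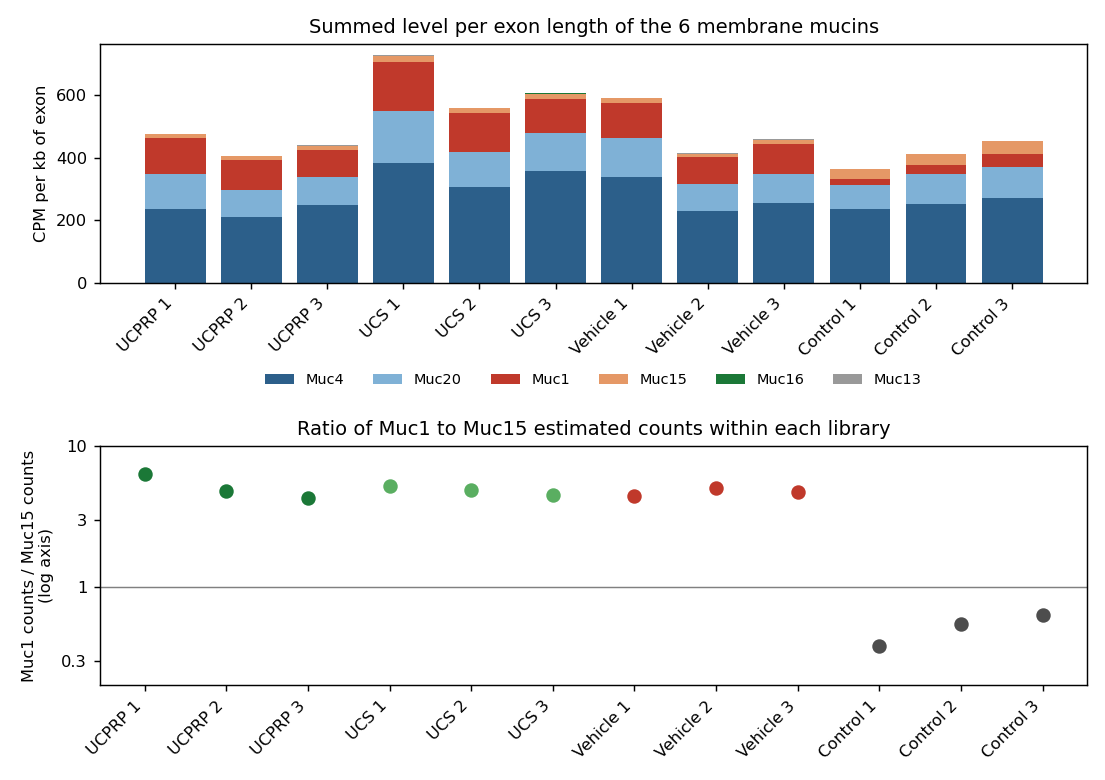
Upper panel, summed CPM per kb of exon of the 6 mucins in each library, stacked by gene; lower panel, ratio of Muc1 to Muc15 estimated counts in each library on a log axis with a line at 1. The ratio was above 4 in all injured libraries and below 1 in all Control libraries.

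The comparisons of UCPRP and UCS with Vehicle ask whether the biologics changed what BAK had done. No gene of the 16124 was called in either comparison by edgeR (0% called), and none of the 6 mucins was. At an unadjusted p under 0.05 there were 1572 genes in UCPRP against Vehicle and 782 genes in UCS against Vehicle. DESeq2 called 145 genes in UCPRP against Vehicle and 13 in UCS against Vehicle, with no mucin among them, and limma-voom called 0 in both. Without Vehicle replicate 3, edgeR called 195 genes in UCPRP against Vehicle and 37 in UCS against Vehicle, again with no mucin among them. That library was the only high-Dbp one in Vehicle (163 CPM, against 14.7 and 25.9 CPM), and all UCPRP libraries were high-Dbp (141 to 212 CPM). Without it, UCPRP treatment and clock phase cannot be told apart.

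In UCPRP, Muc16 and Muc13 were the members whose libraries did not overlap those of Vehicle. Muc16 had 3.10 ± 0.597 CPM in UCPRP and 6.34 ± 1.77 CPM in Vehicle (a log2 fold change of −1.03 with an SE of 0.30, ±2 SE from −1.62 to −0.44, adjusted p = 0.359). Muc13 had 2.04 ± 0.337 CPM in UCPRP and 3.88 ± 0.851 CPM in Vehicle (a log2 fold change of −0.93 with an SE of 0.40, adjusted p = 0.493). Libraries without overlap in the lower direction made up 7.13% of all tested genes. Muc1 had 231 CPM in UCPRP and 230 CPM in Vehicle, with ±2 SE of the log2 fold change from −0.48 to 0.50. Muc4, Muc15 and Muc20 overlapped, with log2 fold changes of −0.25, −0.12 and −0.04. Summed goblet cell markers were 559 to 712 CPM in UCPRP and 1066 to 1568 CPM in Vehicle, with 2 of 12 tested genes at a positive log2 fold change, a median of −0.71 and none called. Summed neutrophil markers were 331 to 468 CPM in UCPRP and 816 to 1479 CPM in Vehicle, with 0 of 7 positive, a median of −2.36 and none called. Much of the neutrophil sum was 1 gene, Ltf, at 300 ± 92.7 CPM in UCPRP and 830 ± 143 CPM in Vehicle. The part of goblet cells and neutrophils in the Muc16 and Muc13 values was not tested.

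In UCS, all 6 members overlapped with Vehicle. Log2 fold changes were 0.40 for Muc1, 0.34 for Muc4, 0.44 for Muc20, 0.34 for Muc15, −0.24 for Muc13 and −0.07 for Muc16, with an adjusted p of 1 for each by edgeR. The ±2 SE interval excluded 0 for Muc15 (0.04 to 0.64) and Muc20 (0.04 to 0.83). It included 0 for Muc1 (−0.09 to 0.89), Muc4 (−0.03 to 0.70), Muc13 (−1.03 to 0.55) and Muc16 (−0.65 to 0.51). Goblet cell markers had a median of −0.38 (3 of 12 positive) and neutrophil markers of −2.17 (0 of 7 positive), with none called. Vehicle replicate 1 was the highest Vehicle library for all 6 members, and was also one of the 2 low-Dbp Vehicle libraries. The other low-Dbp one, Vehicle replicate 2, was the lowest Vehicle library for Muc1, Muc4, Muc15, Muc16 and Muc20. For Muc13 the lowest was Vehicle replicate 3. A part of clock phase in these values was not tested.

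UCPRP was then compared with UCS, the other biologic at the same dose, and no gene was called by edgeR, DESeq2 or limma-voom (0% called, with 393 genes at an unadjusted p under 0.05). All 6 mucins were lower in UCPRP than in UCS in the fitted means (median log2 fold change −0.53, against 0.02 over all genes tested). Libraries of Muc4, Muc15, Muc16 and Muc20 did not overlap, against 5.73% of all tested genes that did not overlap in the lower direction. Muc4 and Muc20 share 627 exon bases, so they may not be separate cases. Muc4 had 2719 ± 237 CPM in UCPRP and 4095 ± 460 CPM in UCS (log2 fold change −0.59, SE 0.18, ±2 SE from −0.96 to −0.22). Muc15 had 45.2 ± 2.76 CPM in UCPRP and 62.1 ± 7.65 CPM in UCS (−0.46, SE 0.15), Muc16 3.10 ± 0.597 CPM in UCPRP and 6.05 ± 1.64 CPM in UCS (−0.96, SE 0.30), and Muc20 388 ± 57.7 CPM in UCPRP and 541 ± 115 CPM in UCS (−0.48, SE 0.20). Muc1 (−0.39, SE 0.25) and Muc13 (−0.68, SE 0.41) overlapped. The adjusted p of each of the 6 was 0.985 by edgeR, so none of these differences passed the test. Summed goblet markers overlapped (559 to 712 CPM in UCPRP and 669 to 1117 CPM in UCS), as did summed markers of epithelium in general (16714 to 22352 CPM in UCPRP and 18852 to 20627 CPM in UCS). By gene, 1 of 12 tested goblet markers had a positive log2 fold change, with a median of −0.44. For epithelium in general it was 4 of 12, with a median of −0.18. The part of these cells in the mucin values was not tested.

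The genes that surround the mucins were examined in Vehicle against Control by lists of other mucins, glycosylation enzymes, anchors, sheddases, receptors and transcription factors. Of 4 tested secreted mucins, Muc5ac and Muc5b rose (Muc5ac 544 ± 101 CPM in Vehicle and 1.23 ± 0.989 CPM in Control, log2 fold change 8.77; Muc5b 8.86). Muc6 (0.79) and Muc2 (0.33) were not called, and the median of 4.78 lies between these pairs and near none of the 4 genes. Of 9 other tested cell-surface mucins 2 rose and 2 fell, with a median of 0.49. Those that rose were Selplg (log2 fold change 2.89), the leukocyte ligand of selectins, and Mcam (1.07), an adhesion molecule of vessels and other cells. Those that fell were Cd164 (−0.72) and Gm9573 (−1.06), which the annotation gives as a synonym of Muc21 and which had 730.2 ± 169 CPM in Vehicle and 1519 ± 446 CPM in Control.

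Enzymes that build O-linked sugars changed in both directions. Of 18 tested GalNAc transferases, which attach the first sugar, 3 rose (Galnt6 log2 fold change 3.92, Galnt12 1.10, Galnt5 0.96) and 2 fell (Galnt18 −1.01, Galnt4 −0.92), with a median of 0.25. Of 19 tested enzymes that extend and cap the chains, 5 rose and 2 fell, with a median of 0.28. Gcnt3 and Gcnt1, which branch the core, rose with log2 fold changes of 3.83 and 3.46. St3gal4, a sialyltransferase, rose by 1.74 and B3gnt3, which extends core chains, by 1.62 on that scale. St6galnac1, which adds sialic acid to the first sugar, fell (269 ± 47.7 CPM in Vehicle and 451 ± 69.5 CPM in Control, log2 fold change −0.75).

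Of 9 tested genes that bind or anchor the glycocalyx, 2 rose and 1 fell, with a median of 0.03. Ezr encodes ezrin, which links membrane mucin tails to actin, and it fell to 205 ± 23.6 CPM in Vehicle, against 578 ± 180 CPM in Control (log2 fold change −1.49, adjusted p = 0.000741). Msn, which encodes the related linker moesin, rose to 250 ± 71.0 CPM in Vehicle, against 92.2 ± 11.8 CPM in Control (log2 fold change 1.44, adjusted p = 0.000441). Lgals1, a galectin, rose with a log2 fold change of 1.06. Lgals3, the galectin known to cross-link MUC1 and MUC16 at the ocular surface, was not called (539 ± 87.2 CPM in Vehicle and 787 ± 301 CPM in Control, log2 fold change −0.55, adjusted p = 0.174).

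Of 13 tested sheddases and their regulators 5 rose and none fell, with a median of 0.16. Mmp9 (log2 fold change 4.83) and Adam8 (3.55) rose most, and both are also made by leukocytes. All 7 tested neutrophil markers and 9 of 10 tested macrophage markers rose in the same comparison, and the part of these cells in the sheddase values was not tested. Adam9 (0.58), Mmp14 (0.50) and Adam10 (0.47) rose by less, and Adam17 was not called (0.16). Of 14 tested receptors and adaptors, Lyn rose (1.19), Erbb4 fell (−0.56) and the median was −0.14. Of 16 tested transcription factors of epithelium and mucin genes, 4 rose and 3 fell, with a median of −0.12. Spdef (3.48), the factor of goblet cell differentiation, Foxa1 (2.63) and Creb3l1 (1.62) rose, and Klf4 (−1.03), a factor of corneal and conjunctival epithelium, fell.

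**Figure D4:**
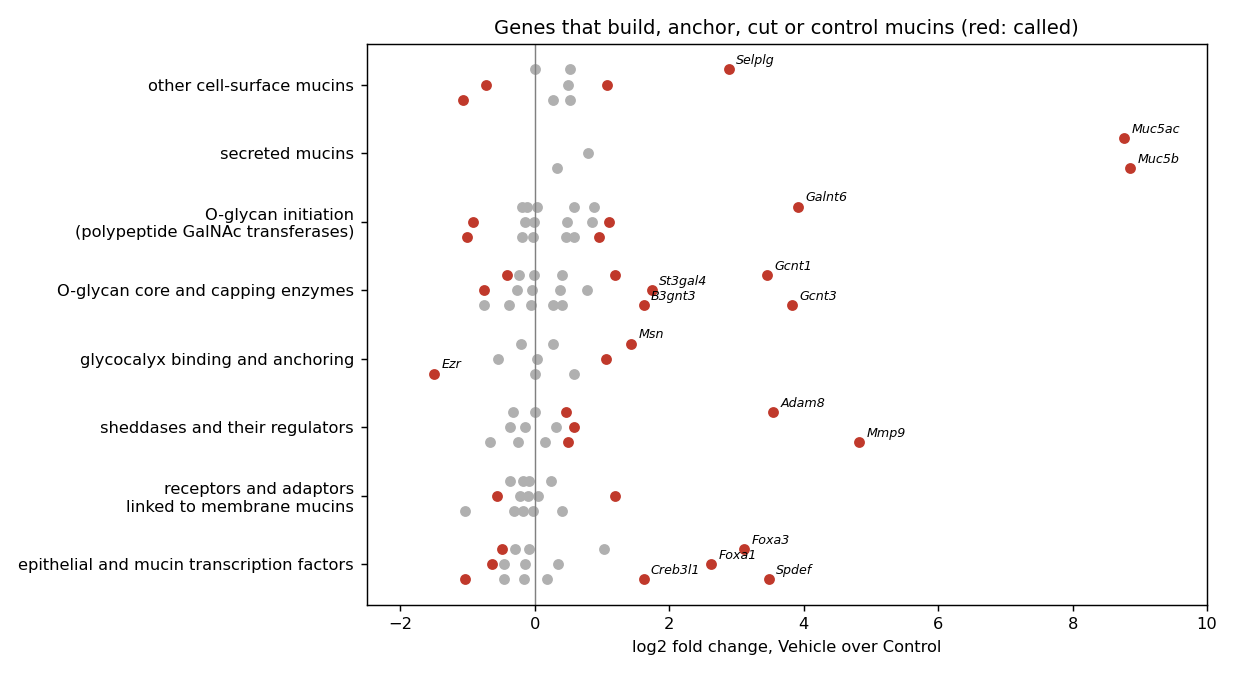
Log2 fold change, Vehicle over Control, of the tested genes in 8 lists related to mucins; each point is a gene, red where called by edgeR and grey where not, and labels mark called genes past 1.4. The secreted mucins Muc5b at 8.86 and Muc5ac at 8.77 lie farthest to the right, and the other secreted mucins, Muc6 at 0.79 and Muc2 at 0.33, were not called.

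The 3 called members each had genes with a closely similar pattern over the 12 libraries. Likeness was the root mean square difference of log2 CPM, each gene centred on its own mean, among 14605 genes; it is a description and has no test. Nearest to Muc1 were Apobec3 (0.17), Adamdec1 (0.20) and Trpm6 (0.20), where Muc1's own profile had a root mean square of 0.90. Apobec3, a cytidine deaminase that restricts retroviruses, had 102 ± 14.1 CPM in Vehicle and 26.8 ± 6.94 CPM in Control. Trpm6, a magnesium channel, had 40.8 ± 7.04 CPM in Vehicle and 13.0 ± 7.68 CPM in Control.

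Nearest to Muc15 were Dsc3 (0.14), Rnf152 (0.14) and Gask1b (0.18), against 0.62 for Muc15's own profile. Dsc3, a desmosomal cadherin of stratified epithelium, had 211 ± 50.5 CPM in Vehicle and 581 ± 70.3 CPM in Control. Rnf152, a lysosomal ubiquitin ligase, had 64.1 ± 7.75 CPM in Vehicle and 163 ± 7.63 CPM in Control.

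Nearest to Muc16 were Scgb2b2 (0.39), Ern2 (0.56) and Tff1 (0.61), against 2.45 for Muc16's own profile. Scgb2b2, a secretoglobin, had 6.98 ± 1.99 CPM in Vehicle and 0 CPM in all 3 Control libraries. Ern2, a sensor of endoplasmic reticulum stress found in mucus-secreting epithelium, had 2.31 ± 0.677 CPM in Vehicle and also 0 CPM in Control. Tff1, a trefoil peptide secreted with mucins by goblet cells, had 18.1 ± 3.13 CPM in Vehicle and 0.0741 ± 0.0646 CPM in Control. All 3 are, like Muc16, at or near 0 in Control, and the differences between profiles at such levels depend on the prior count of 2.

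**Figure D5:**
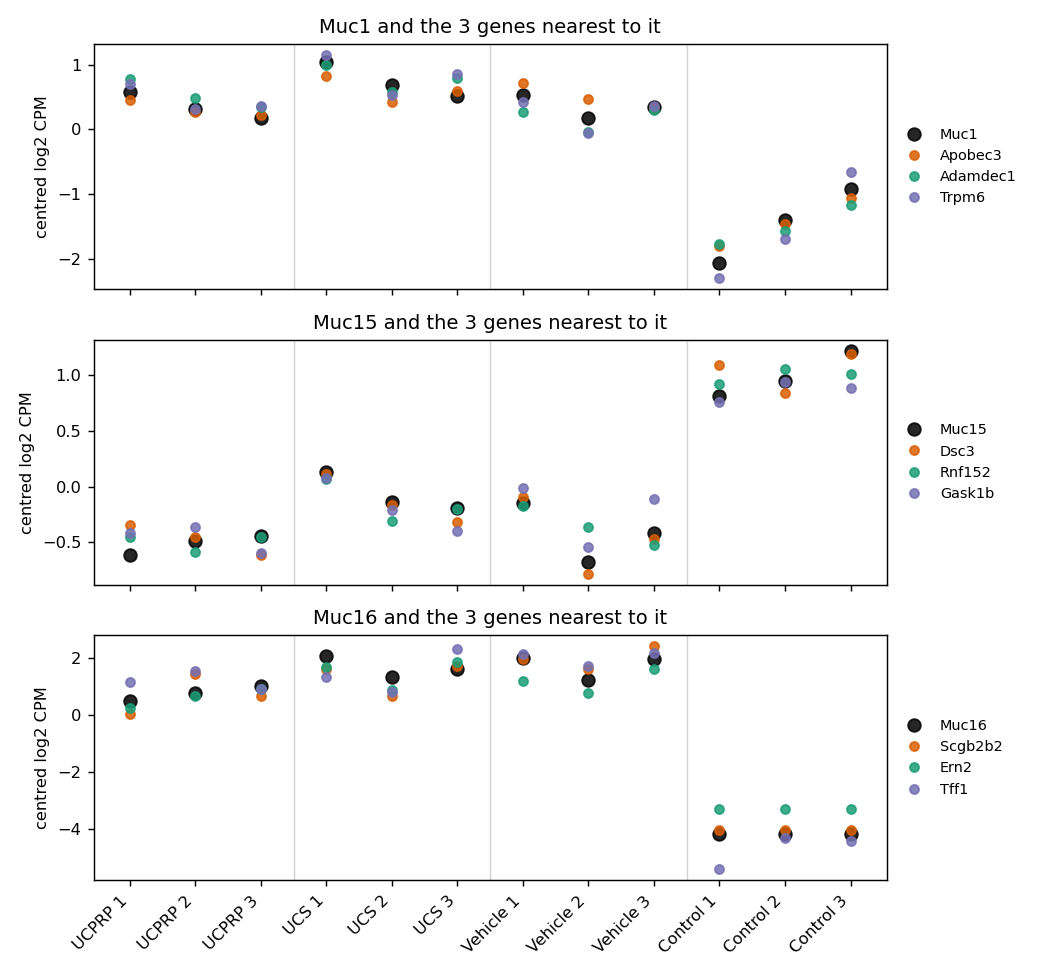
Centred log2 CPM of Muc1, Muc15 and Muc16 (black) and of the 3 genes nearest to each, by library. The Muc1 and Muc16 sets are low and the Muc15 set is high in the 3 Control libraries at the right.

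Of 12 tested conjunctival markers 4 rose and 3 fell in Vehicle. Those that rose were the keratins Krt4 (log2 fold change 2.30), Krt7 (2.10), Krt13 (1.63) and Krt19 (1.22), while the keratins Krt8 (0.06), Krt18 (−0.11) and Krt6a (−0.12) were not called. Those that fell were Aqp5 (−3.20), Upk1b (−1.65) and Psca (−0.99). Their summed level over the list was 18943 to 26500.0 CPM in Vehicle and 12281 to 23090.0 CPM in Control. Muc5ac, the defining goblet cell mucin, had 457 to 655 CPM in Vehicle and 0.412 to 2.33 CPM in Control, and Gp2, another gene of the goblet list, had 223 ± 52.2 CPM in Vehicle and 0.446 ± 0.447 CPM in Control. Of the other tested markers, 2 of 12 of epithelium in general rose and 5 fell, 3 of 9 of epidermis rose and 3 fell, 3 of 8 of vessel endothelium rose and none fell, and 3 of 7 of stroma rose and 2 fell. None of 7 lymphocyte, 2 lacrimal or meibomian gland, 8 retina, 8 lens or 8 skeletal muscle markers was called, and 1 of 14 clock genes fell. Transcripts of other tissues were uneven between libraries. Summed skeletal muscle markers were 164 to 1134 CPM in Vehicle and 7.47 to 303 CPM in Control (8 of 8 positive, median log2 fold change 2.30). Over all groups, summed retina markers ran from 2402 to 14318 CPM and summed lens markers from 57.0 to 24603 CPM. The part of conjunctival, goblet or other cells in the Muc1, Muc15 and Muc16 values was not tested.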

How the data were processed

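The authors deposited unscaled estimated counts for each gene in each library (read counts per the file headers); 64.9% of the values were whole. The submitters' processing notes name HISAT and GRCm38; per the labels' protocols, RNeasy extraction was followed by TruSeq stranded total RNA preparation. The sources used here name no counting tool or annotation and no use of strand. The labels do not say whether pools of a group were handled separately, so p values measure the spread between pools.

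Estimated counts were rounded, filtered with filterByExpr (minimum count 10), given TMM factors (0.825 to 1.067) and tested with edgeR 4.0.16 (R 4.3.3; robust quasi-likelihood, 1 term per group, all 12 libraries) in 6 pairwise comparisons. The scripts were tested on simulated data. Each SE is |log2 fold change| over the square root of F. Levels per kb divide CPM by the union of exons (GENCODE, GRCm38). Within groups, chi-square per degree of freedom was 18.3 or more, so no libraries were merged.

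The members and the 23 gene lists (253 of 258 symbols found) were chosen with earlier results of these data known. All members are named in every comparison. From each of the 8 mucin-related lists, and the conjunctival and goblet lists, up to 4 called genes with the largest change and at least 1 CPM are named. The other marker lists are given mainly as counts or sums, and most of their called genes are not named. Adam10, Adam17, Galnt4, Krt6a, Krt8, Krt13, Krt18, Krt19, Lgals3, Muc2, Muc6, Psca and St6galnac1 were named after their values were seen. So were the neighbours Thbs3, Trim46 and Ano3. For each called member, the 3 genes nearest in pattern are named. Alternatives were RLE factors, library totals, a minimum count of 50, no filter, DESeq2 1.42.0, limma-voom 3.58.1, the compared pair of groups alone, a clock covariate, a replicate block, and leaving out each library.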

Additional observations from a re-analysis of the deposited data

How the results depend on the processing

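The 9 calls of Muc1, Muc15 and Muc16 against Control kept their direction and their side of the threshold in 135 of 135 alternative values (15 settings per comparison). The log2 fold change of Muc1 ranged from 1.5 to 2.05 in Vehicle, 1.90 to 2.45 in UCS and 1.51 to 2.06 in UCPRP, each against Control. That of Muc15 ranged from −1.55 to −1.27 in Vehicle, −1.16 to −0.94 in UCS and −1.61 to −1.40 in UCPRP. The count of called mucins in UCS against Control was 3 by edgeR and 5 by DESeq2 (4 higher, 1 lower), and the cause was not tested; with library totals in place of TMM Muc20 was also called there (0.67, adjusted p = 0.0292).

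Libraries of the same replicate number showed no steady pairing (correlations of deviations from −0.581 to 0.494). With 3 libraries per group, these correlations cannot exclude pairing. A replicate block left 3 called mucins in each comparison with Control and 0 in each of the other 3. Over all genes the block gave 2300 calls in Vehicle, 1493 in UCS and 1402 in UCPRP against Control, where the fit without it gave 2661, 1753 and 1671. Library totals gave 2020 higher and 868 lower calls in Vehicle against Control, against 1545 and 1116 with TMM, and moved the median log2 fold change of all genes to 0.11 (0.12 in UCPRP against Control). Without 1 library, calls over all genes fell to 1089 in UCS against Control (without UCS replicate 3), and to 1009 and 998 in UCPRP against Control (without UCPRP replicate 2 or 3).

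Values of members that were not called changed sign in 26 of 405 alternatives, and the cause was not tested. In UCPRP against Vehicle, Muc1 moved to 0 with RLE factors, with DESeq2 or with the pair of groups alone, to −0.02 with library totals and to −0.01 with a minimum count of 50; the clock covariate moved Muc15 to 0.04 and Muc20 to 0.12. Values with each library left out in turn straddled 0 as follows. In UCPRP against Vehicle they ran from −0.11 to 0.10 for Muc1, −0.25 to 0.03 for Muc15 and −0.17 to 0.14 for Muc20. In UCPRP against Control they ran from −0.07 to 0.20 for Muc13 and −0.03 to 0.17 for Muc20. In UCS against Vehicle they ran from −0.93 to 0.06 for Muc13 and −0.30 to 0.08 for Muc16. In UCPRP against UCS they ran from −0.98 to 0.01 for Muc13, and in Vehicle against Control from −0.06 to 0.24 for Muc4 and −0.04 to 0.26 for Muc20. Without UCS replicate 3, the value of Muc13 in UCS against Control was 0.03. Muc13 (30.9 to 113 counts per library) and Muc16 (at most 148) rest on few counts.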
